A study of Mus musculus with 32 samples.

Results

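Of 5723 chromatin-enriched transcripts that the authors' deposited table lists as different between wild-type and histone H1-deficient mouse embryonic stem cells, 185 carry the authors' prefix for bidirectional transcripts, 1 for each of 185 genes. These 185 genes, read from the names after that prefix, are described here. All 185 were found in the GENCODE annotation, 182 by the name as given and 3 (Fam21, Fam46c and Ctgf) through an older name, and all 185 are protein coding. Every one of the 185 bidirectional transcripts lay on the strand opposite to its gene, with its 5′ end within 1 kb of an annotated start of that gene, which is the geometry the label describes.

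The groups were mouse embryonic stem cells labelled WT and H1-TKO cells, labelled as a histone H1 triple knockout. Both were grown in serum with LIF, and the labels name no treatment. Linker histone H1 sits on the nucleosome at the entry and exit of its DNA and helps to compact chromatin. Hist1h1c, Hist1h1d and Hist1h1e, the genes known as background to be deleted in this line, had log2 values of -3.61, -5.02 and -4.83 once all values were multiplied by -1, which is how the direction was read as H1-TKO over wild type. This direction is an inference, since the table does not state it. The labels do not say how many clones the H1-TKO line represents, whether replicates came from separate cultures, or how the genes were deleted.

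Chromatin-enriched RNA (cheRNA) was taken from the chromatin that sediments after urea and detergent lyse the nuclei. It came from 3 samples per genotype, and the table gives 1 log2 value per transcript, with no value per sample, no error and no p-value. Every listed transcript has an absolute log2 value of at least 1.00, so a gene that is not listed may have changed by less or may not have been called. MapR maps R-loops, in which RNA pairs with one DNA strand and the other is left single, by tethering micrococcal nuclease to an inactive RNase H (RNH), which binds the hybrid. It gave 2 RNH libraries and 1 nuclease-only control (MNase only) per genotype, each with its own peak list. Those lists held 25392 and 6458 peaks in the H1-TKO RNH libraries, 22336 and 6612 in wild type, and 582 and 568 in the nuclease-only controls, so replicate 1 of both genotypes had far longer lists than replicate 2. Of 12 embryonic stem cell marker genes, 8 had an RNH peak at the promoter in at least 1 library, against 51.5% of protein-coding promoters. So had 9 of 15 neuroectoderm, 5 of 15 endoderm, 6 of 13 mesoderm and 6 of 13 fibroblast markers. These peaks therefore do not identify the cell type. Dppa3 was the only stem cell marker with a listed gene transcript, at log2 3.01. Tubb3, a neuronal tubulin gene, was the only bidirectional gene among the 68 stem cell, germ layer and fibroblast markers checked.

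Many mammalian promoters are divergent: RNA polymerase II starts on both strands from neighbouring core promoters that share a nucleosome-depleted region, usually a CpG island. The RNA made away from the gene (promoter upstream or upstream antisense RNA) is normally short, capped, stays on chromatin and is ended early at polyadenylation signals and then degraded by the nuclear exosome. U1 snRNP bound at 5′ splice sites on the gene side protects the gene's own transcript from the same early end. At some promoters the second start belongs to another annotated gene in head-to-head orientation.

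The following sequences are the RefSeq promoter windows of the 3 highest and the 2 lowest bidirectional transcripts and of the 3 genes with the strongest MapR peaks in all 4 RNH libraries, ranked by the lowest of their 4 values (Pgk1 belongs to the first and the last of these groups). Each runs 5′ to 3′ on the strand of the gene, from 250 bases before to 50 bases after the RefSeq start, in build GRCm38.p6. RefSeq held an entry for 139 of the 185 genes, and for 129 it lay within 500 bp of the start used here. Zic2, Ttc39a, Etv4 and Xpo7 had none within that distance, and the next genes in order with an entry were taken. Capitals mark every match, on either strand, to 1 of 6 motifs: the TATA box (TATAAA), the GC box known from Sp1-type factors (GGGCGG), the CCAAT box known from the factor NF-Y, the site of ETS factors (CCGGAAG), the cyclic AMP response element (TGACGTCA) and the E-box (CACGTG). Matches may overlap each other, and a match is a string of letters and not a shown binding site.
Pgk1: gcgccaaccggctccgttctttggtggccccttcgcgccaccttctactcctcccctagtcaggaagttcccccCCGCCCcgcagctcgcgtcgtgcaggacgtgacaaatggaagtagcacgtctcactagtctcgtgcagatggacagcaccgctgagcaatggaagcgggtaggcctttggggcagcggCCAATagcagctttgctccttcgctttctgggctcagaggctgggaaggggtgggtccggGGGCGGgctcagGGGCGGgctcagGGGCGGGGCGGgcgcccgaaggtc
Upp1: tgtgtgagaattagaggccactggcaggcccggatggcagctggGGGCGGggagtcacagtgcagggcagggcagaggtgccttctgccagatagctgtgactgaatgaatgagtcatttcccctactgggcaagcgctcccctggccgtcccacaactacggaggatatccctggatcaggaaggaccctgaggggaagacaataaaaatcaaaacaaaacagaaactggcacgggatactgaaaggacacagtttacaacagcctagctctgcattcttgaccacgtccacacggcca
Ncoa4: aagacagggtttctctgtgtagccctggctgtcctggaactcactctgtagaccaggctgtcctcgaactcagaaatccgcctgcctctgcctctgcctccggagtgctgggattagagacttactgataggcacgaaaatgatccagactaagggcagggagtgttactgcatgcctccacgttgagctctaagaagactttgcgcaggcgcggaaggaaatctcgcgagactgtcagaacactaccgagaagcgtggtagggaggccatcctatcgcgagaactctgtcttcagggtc
Lmo7: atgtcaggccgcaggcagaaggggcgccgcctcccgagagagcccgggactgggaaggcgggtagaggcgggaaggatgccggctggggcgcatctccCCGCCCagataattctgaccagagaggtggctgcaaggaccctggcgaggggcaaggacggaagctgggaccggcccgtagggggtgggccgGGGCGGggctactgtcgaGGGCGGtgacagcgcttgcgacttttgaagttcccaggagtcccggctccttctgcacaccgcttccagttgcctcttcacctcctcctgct
Ppp1r9a: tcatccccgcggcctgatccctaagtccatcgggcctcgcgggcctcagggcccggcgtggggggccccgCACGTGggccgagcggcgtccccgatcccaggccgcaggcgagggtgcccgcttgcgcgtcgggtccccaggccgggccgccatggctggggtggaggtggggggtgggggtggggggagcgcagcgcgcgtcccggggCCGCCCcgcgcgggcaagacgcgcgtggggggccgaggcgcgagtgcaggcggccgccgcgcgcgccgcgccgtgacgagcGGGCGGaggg
Anapc5: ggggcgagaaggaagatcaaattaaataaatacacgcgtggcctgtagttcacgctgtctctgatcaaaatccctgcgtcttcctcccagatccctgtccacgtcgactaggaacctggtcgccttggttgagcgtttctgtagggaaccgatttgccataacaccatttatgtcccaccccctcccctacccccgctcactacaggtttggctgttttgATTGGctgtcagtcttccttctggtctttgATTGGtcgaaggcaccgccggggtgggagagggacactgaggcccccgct
0610009B22Rik: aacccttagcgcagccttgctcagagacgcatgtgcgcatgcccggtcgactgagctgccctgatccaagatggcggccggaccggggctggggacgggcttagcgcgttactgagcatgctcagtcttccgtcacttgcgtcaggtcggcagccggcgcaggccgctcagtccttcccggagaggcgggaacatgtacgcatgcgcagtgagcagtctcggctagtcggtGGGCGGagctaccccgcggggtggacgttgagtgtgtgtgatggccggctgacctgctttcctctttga

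The Pgk1 window (chrX:106186850-106187149, + strand) held 6 matches, of which 5 were GC boxes and 1 was a CCAAT box. The Upp1 window (chr11:9117853-9118152, + strand) held 1 GC box, and the Ncoa4 window (chr14:32159637-32159936, + strand) held no match to any of the 6 motifs. Among the lower transcripts, the Lmo7 window (chr14:101729678-101729977, + strand) held 3 GC boxes, and the Ppp1r9a window (chr6:4903061-4903360, + strand) held 2 GC boxes and 1 E-box. The Anapc5 window (chr5:122821293-122821592, - strand) held 2 CCAAT boxes, and the 0610009B22Rik window (chr11:51688585-51688884, - strand) held 1 GC box. The RefSeq start lay 477 bp upstream of the start used here for Ppp1r9a and 324 bp upstream for Anapc5, and 240 bp downstream for 0610009B22Rik. The windows of Pgk1, Upp1, Ppp1r9a and Anapc5 end upstream of the start used here and of the 5′ end of the bidirectional transcript, so they hold neither of these.

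Over the 129 promoters with a sequence, 84.5% had a ratio of observed to expected CpG of at least 0.6, against 48.0% of 17353 other protein-coding promoters and 58.8% of 1435 other genes with a listed gene transcript. The GC box was present in 73.6% of them, against 46.1% of other protein-coding promoters and 62.5% of genes with a listed gene transcript. TATAAA was less frequent, at 5.43% against 13.4% and 9.48%. The CCAAT box was at a like share in all 3 groups, at 40.3%, 39.0% and 33.8%. The ETS motif was present in 14.7%, 11.9% and 8.01%, the cyclic AMP response element in 3.88%, 2.33% and 1.67%, and the E-box in 10.1%, 7.90% and 7.32%. For the 129 genes the RefSeq entry nearest to the start used was taken, within 500 bp, and for the other genes the first entry without such a limit. The bidirectional genes without an entry within 500 bp are left out. These shares are descriptions, with no test.

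The first 1 kb of RNA sequence differed between the 2 sides in the same direction as at other coding genes. The polyadenylation hexamer AATAAA stood in 16.8% of the 185 gene sides and in 30.8% of the bidirectional sides. At 21753 other protein-coding genes it stood in 24.5% of gene sides and in 41.1% of the opposite-strand sides. A 5′ splice site string (GGTAAG or GGTGAG) stood in 69.2% of the gene sides and 38.4% of the bidirectional sides, against 66.7% and 37.1% at the other genes. The median GC content was 57.8% on the gene side and 51.6% on the bidirectional side, against 53.5% and 47.8% at the other genes. The 27 lower transcripts had AATAAA in 14.8% and a splice string in 51.9% of their first kb, against 33.5% and 36.1% of the 158 higher ones, and a median GC content of 62.3% against 50.6%. All of these counts were made from the genome sequence on the RNA strand. At the 185 genes they begin at the gene start used here and at the 5′ end of the bidirectional transcript. At the other genes both sides begin at the outermost annotated start, so the 2 sets were not read alike. At 17 of the 27 lower and 57 of the 158 higher transcripts that 5′ end lies inside the gene, so their first kb spans the gene start. The part of this geometry in the values of lower and higher transcripts was not tested.

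Most bidirectional transcripts were higher in H1-TKO cells. Of the 185, 158 were higher and 27 lower, which is 85.4% higher, against 60.1% of all listed transcripts and 45% of the listed transcripts named for the gene itself. The share was 66.4% for the authors' class of sense transcripts at the 5′ side, 74.0% for intergenic and 86.6% for antisense transcripts within genes, so that bidirectional and antisense transcripts had about the same share. The changes were modest in size: the median log2 value was 1.67 for the higher and -1.56 for the lower bidirectional transcripts, and the median absolute value was 1.65, against 2.04 for the other listed transcripts. A fold of at least 4 was reached by 55, of which 48 were higher.

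**Figure D1:**
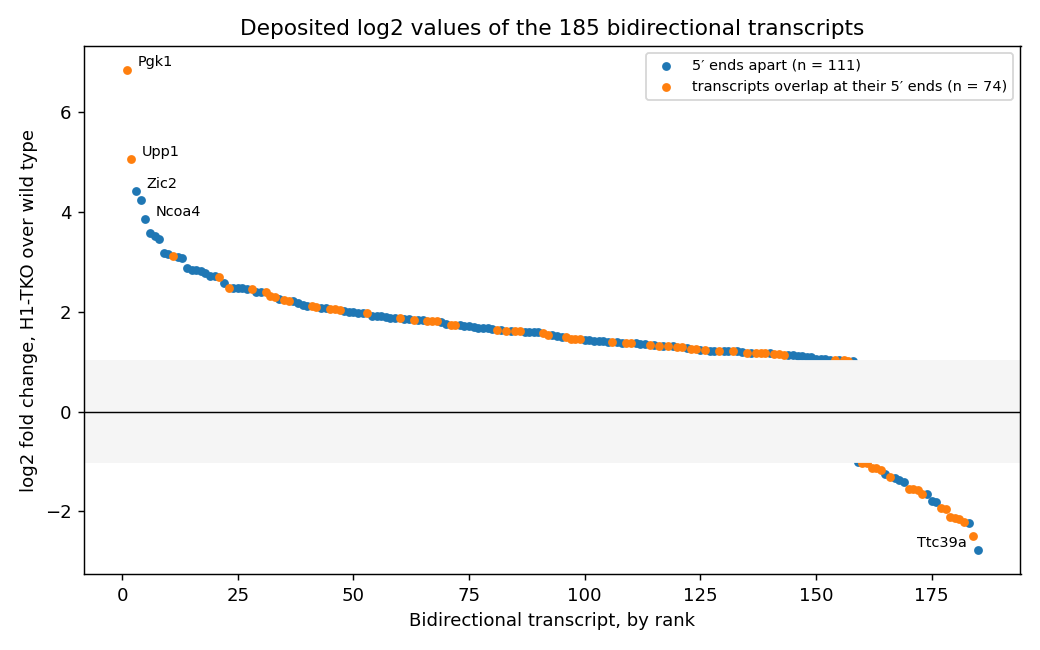
Deposited log2 values (H1-TKO over wild type) of the 185 bidirectional transcripts in rank order; blue points have 5′ ends apart from the gene start (111), orange points overlap the gene transcript at the start (74), and the grey band holds no value because the table starts at an absolute log2 value of 1.00. A reader should see 158 points above and 27 below the band, with Pgk1 (6.85) and Upp1 (5.06) set off at the top and Ttc39a (-2.78) at the bottom.

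The highest value belonged to Pgk1, the gene of the glycolytic enzyme phosphoglycerate kinase, whose bidirectional transcript of 507 bp (chrX:106186728-106187234, - strand) had a log2 value of 6.85. Upp1, uridine phosphorylase, followed with 5.06 over 1090 bp (chr11:9117277-9118366, - strand), then Zic2, a zinc finger transcription factor of neural development, with 4.41 over 9439 bp. Ncoa4, a receptor for the turnover of ferritin, had 3.85. These 4 span widths from 507 bp to 26004 bp, so the top of the list is not made of 1 kind of transcript.

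After Ncoa4 came Tubb3 at 3.57, the mitotic checkpoint ubiquitin ligase Chfr at 3.52, the secreted matrix protein gene Adamtsl1 at 3.46, the lactate dehydrogenase subunit Ldhb at 3.18 and the antiviral ubiquitin ligase Trim25 at 3.15. For Adamtsl1 the start used is an alternative one, 539743 bp inside the gene. Of the 185 genes, 110 had the outermost annotated start, 175 a start within 1 kb of it and 10 a start further inside.

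At the low end, Ttc39a (a tetratricopeptide repeat gene) had -2.78 and Etv4, an ETS factor known as a target of FGF signalling, had -2.49. Lmo7, which encodes a LIM domain protein, had -2.24, the nuclear transport receptor Xpo7 had -2.21 and neurabin, Ppp1r9a, had -2.15. The chaperonin subunit Tcp1 had -2.13, the circadian phosphatase Noct -2.12, the nucleic acid-binding protein Pura -1.95, the inositol phosphate kinase Itpk1 -1.93 and Grtp1 -1.82. The Tcp1 transcript, 637 bp long, starts with the neighbouring coding gene Mrpl18, and that of Xpo7 with Dok2.

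Most of the bidirectional transcripts were several kilobases long. Their median width was 9439 bp, with quartiles at 5048 and 14191 bp, and they ranged from 324 bp (Rpgrip1) to 99469 bp (Ctgf). The bidirectional transcript was longer than the annotated gene itself at 45 genes. The 14 transcripts under 2 kb had a median log2 value of 2.54 with 10 of them higher, the 143 between 2 and 20 kb had 1.50 with 125 higher, and the 28 of 20 kb or more had 1.38 with 23 higher. The sources used here do not say how the transcripts were assembled, and their ends depend on it.

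The distance from the 5′ end of the bidirectional transcript to the nearest annotated start of its gene had a median of 70 bp (positive where the transcripts point apart) and ranged from -971 to 562 bp. It was within 500 bp for 174 of the 185. At 111 genes the 5′ ends were apart, and 101 of those transcripts were higher (91.0%); at the other 74 the transcripts overlapped around the start, and 57 were higher (77.0%). The difference between these shares was not tested, because genes are not replicates.

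Some of these RNAs began at an annotated start on their own strand. At 13 genes the bidirectional transcript began within 1 kb of the start of another protein-coding gene that it ran over, and 10 of the 13 were higher: examples are Fam234b beside Hebp1 (2.39), Sqstm1, the autophagy receptor, beside Mgat4b (1.74), and Dleu7 beside Rnaseh2b (1.57). At 51 genes that partner was a non-coding gene, and 41 were higher. At the other 121 no annotated start was found within that distance, and 107 were higher (88.4%). Counting only the 92 transcripts that overlapped no annotated gene on their own strand, 80 were higher (87.0%).

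The genes were unevenly spread over 20 chromosomes. Chromosome 11 held 39 of them, 21.1% of the set against 9.45% of all listed transcripts, and 38 of the 39 were higher, Etv4 being the exception. Listed transcripts on chromosome 11 were higher in general, with 478 of 541 (88.4%). Away from chromosome 11, 120 of 146 bidirectional transcripts were higher (82.2%). The highest on chromosome 11 after Upp1 and Trim25 were Sfi1 at 2.49, a centrosomal protein gene, and Skp1a at 2.48, a subunit of SCF ubiquitin ligases. Chromosome 9 held 7 of the genes, 4 higher and 3 lower, where 31.5% of the listed transcripts were higher. The part of the number of chromosome copies in these values was not tested.

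Where the gene's own transcript was also listed, it nearly always moved with the bidirectional one. This held for 50 of 53 such genes (94.3%): both were higher at 33 and both lower at 17. At 3 genes the bidirectional transcript was higher and the gene transcript lower, and at 0 genes the reverse. For the other classes, the share in the same direction as a listed gene transcript of the same name was 98.7% for 5′ sense transcripts (147 of 149), 78.9% for antisense transcripts within genes (86 of 109) and 83.6% for intergenic transcripts (403 of 482). Both values of a pair come from the same 6 samples, so they share sampling and scaling.

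**Figure D2:**
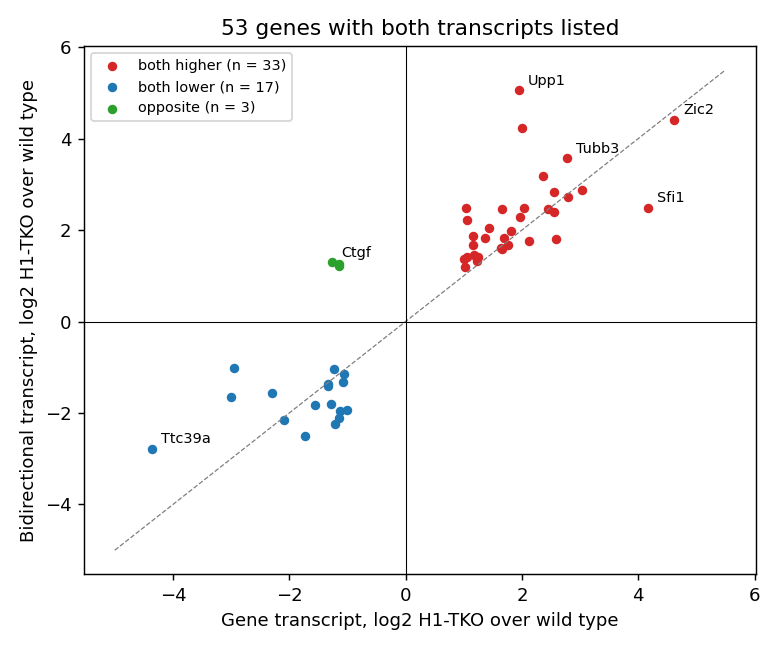
Deposited log2 value (H1-TKO over wild type) of the gene transcript (x axis) and of its bidirectional transcript (y axis) at the 53 genes with both listed; the dashed line marks equal values. A reader should see 33 genes at the upper right, 17 at the lower left, 3 at the upper left and 0 at the lower right, with Upp1 far above the line and Sfi1 below it.

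Among genes with both higher, Zic2 had near-equal values, 4.41 for the bidirectional and 4.62 for the gene transcript, and so had the Notch ligand Dll1 (2.72 and 2.79), Lrrc31 (2.88 and 3.03) and the glutathione transferase Gstm5 (2.40 and 2.55). Sfi1 had the larger change in the gene transcript, 4.16 against 2.49, as had the interferon-induced Oas1c, 2.58 against 1.81. Tubb3 (3.57 and 2.77), the glutathione-degrading enzyme Chac1 (2.83 and 2.55), the antiviral RNA-binding protein Zc3hav1 (2.47 and 2.45) and Ldhb (3.18 and 2.36) had the larger or an equal change in the bidirectional transcript. For Upp1 the gene transcript was at 1.95 and the bidirectional one at 5.06, a difference of 3.11. The bidirectional value was the larger at 23 of the 33 genes, with medians of 2.05 for bidirectional and 1.75 for gene transcripts.

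Among genes with both lower, Ttc39a was at -4.36 in the gene transcript and -2.78 in the bidirectional one. Slc44a1, a choline transporter, had gene transcripts at -1.82 and -2.99 and the bidirectional one at -1.65, and Serpinb6c was at -2.95 and -1.03. The forkhead factor Foxp4 was at -2.29 and -1.56, Ppp1r9a at -2.08 and -2.15, and Etv4 at -1.73 and -2.49. Grtp1 (-1.56 and -1.82), Stard3nl (-1.33 and -1.41), Pmepa1, an inhibitor of TGF-beta signalling (-1.33 and -1.37), and the chromatin organiser Satb1 (-1.27 and -1.79) followed in order of the gene transcript's value. The bidirectional value was the lower at 12 of the 17 genes.

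The 3 genes with opposite values were Ctgf, a secreted growth factor known as a YAP target, at 1.30 for the bidirectional and -1.27 for the gene transcript, Tep1, a telomerase- and vault-associated protein gene, at 1.25 and -1.14, and the collagen-modifying Crtap at 1.22 and -1.14. All 3 overlapped their gene around the start, with distances of -254, -154 and -462 bp, and all 6 values were near the table's limit. Over the 53 genes Pearson's r between the values was 0.881 and Spearman's rho 0.883, within the 33 both higher r was 0.585, and within the 17 both lower 0.31. These describe genes of 1 comparison and are given without a test, since the table leaves out small changes, which inflates the correlation over all 53.

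At the other 132 genes the gene transcript was not listed, and 122 of their bidirectional transcripts were higher (92.4%). The corresponding shares were 84.6% for 5′ sense, 91.3% for antisense and 77.4% for intergenic transcripts without a listed gene transcript. The median absolute log2 value was 1.58 at these 132 genes and 1.83 at the 53. Further transcripts of the same name were listed for 45 genes. Of the 5′ class there were 17, all 17 in the direction of the bidirectional one. There were 9 antisense ones from 4 genes, with 8 in its direction, and most of the 9 lay in Adamtsl1 alone. The 48 intergenic ones came from 31 genes, with 44 in its direction. At 103 genes the bidirectional transcript was the only listed transcript of that name, and 95 of these were higher. No bidirectional transcript overlapped another listed transcript on its own strand, so none was counted under 2 names.

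By function the set was broad, and the fixed lists held few members each. All 7 members among 414 genes of the ubiquitin pathway by symbol were higher, from Fbxo48 at 1.03 to Trim25 at 3.15, with a median of 1.41. They include Ube2s, an E2 enzyme of the anaphase-promoting complex, at 1.40, and the deubiquitinase Usp38 at 1.59; Anapc5, a subunit of that complex outside the list, had 3.11. Zinc finger genes by symbol gave 8 members, 7 higher and Zfp609 lower (-1.55), with a median of 1.26. The developmental transcription factor families had 4 members among 301 genes, Zic2 higher and Klf3 (-1.14), Foxp4 (-1.56) and Pou3f1 (-1.65) lower, with a median of -1.35. For comparison, 85.4% of all 185 were higher, and the median was 1.52 over all 185 and 1.38 over all listed transcripts. With so few members, no list can be set apart from these values.

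Among chromatin regulators there were 2 members of 123 genes, both higher: Ezh2, the H3K27 methyltransferase of Polycomb, at 1.62, and the acetyltransferase Kat7 at 2.08. Nuclear RNA decay and early termination gave Cstf3, a cleavage stimulation factor subunit, at 1.71 and Xrn2, the exonuclease that ends transcription, at 1.03. Xrn2 stands also in the R-loop list, beside Rnaseh2b, a subunit of RNase H2, at 1.38. For Rnaseh2b the start used is an alternative one, 39536 bp inside the gene. The bidirectional transcript named for Dleu7 (1.57) runs over Rnaseh2b on that gene's own strand. For none of these 5 genes was the gene transcript itself listed. Listed gene transcripts of the chromatin regulators were 4 higher and 11 lower, where 45% of all listed gene transcripts were higher. These counts are too small to set apart from that share. Kinases and phosphatases gave 3 higher, among them Mark4 at 3.11 and Mapk9 (JNK2) at 1.51, and Ppp1r9a lower. Solute carriers gave 3 higher, Slc25a39 at 1.42, Slc38a10 at 1.20 and Slc16a1 at 1.17, and Slc44a1 lower. Membrane traffic and small GTPase genes gave 3 higher and Arhgap21 lower (-1.13), and genes with predicted or uncharacterised names 3 higher and 1 lower.

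Single members came from 6 further lists, and all 6 were higher, where 85.4% of the whole set were: Orc2 of DNA replication at 1.36, Taf15 of RNA processing at 2.25, Eif1 of translation at 1.37, the retinoblastoma relative Rbl1 of the cell cycle at 1.24, Dll1 of the signalling pathways at 2.72 and Tubb3 of the neuroectoderm markers at 3.57. There were 0 members among 38 pluripotency genes, 23 genes of the m6A pathway, 9 linker histone genes, 170 ribosomal protein genes and the endoderm, mesoderm and fibroblast markers. The whole set is 185 of 21938 protein-coding genes, so 0 members in lists of these sizes does not set them apart. Replication-dependent core histone genes were represented by Hist3h2a at 1.66 and Hist2h4 at 1.33, which were in no list and are named after their values were seen.

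MapR was measured independently of the naming of these genes, and their promoters carried RNH peaks often. A peak within 1 kb of the gene start was present in H1-TKO at 150 of 185 promoters in RNH library 1 (81.1%) and at 46 in library 2 (24.9%). In wild type it was present at 127 in library 1 (68.6%) and at 38 in library 2 (20.5%). At all protein-coding promoters the shares in the same order were 45.8%, 12.8%, 40.8% and 9.91%. The share at bidirectional genes was thus above that of coding genes in each of the 4 libraries. In the 2 nuclease-only libraries 0 of 185 promoters had a peak. The lists hold peaks and no read counts, so the depth behind these shares is unknown.

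Coding genes with a listed gene transcript and no bidirectional one gave 53.1%, 10.4%, 44.9% and 8.20% in the same order, below the bidirectional genes in each library. Genes with a listed antisense transcript and no bidirectional one gave 59.1%, 14.0%, 53.6% and 12.3%. The start used for bidirectional genes is the one nearest to the transcript, and that of the other genes is the outermost one. Whether expression level or CpG content accounts for the difference was not tested, and the CpG shares are given with the promoter sequences.

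**Figure D3:**
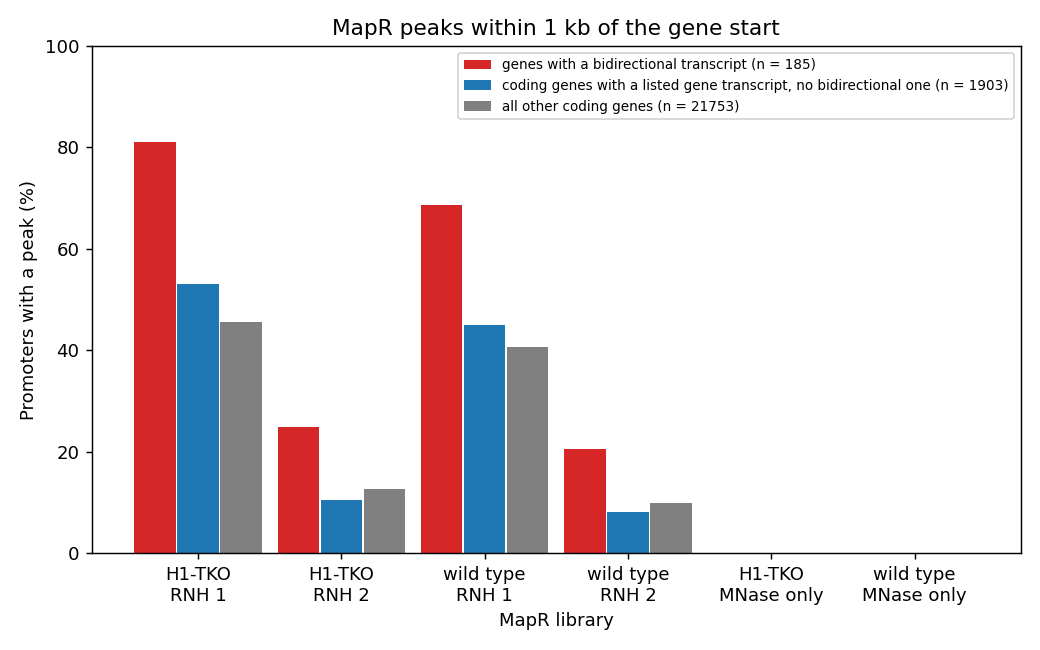
Share of promoters (%, y axis) with a MapR peak within 1 kb of the gene start in each of the 6 libraries, for the 185 genes with a bidirectional transcript (red), 1903 coding genes with a listed gene transcript but no bidirectional one (blue) and all 21753 other coding genes (grey). The red bar is the tallest in each RNH library, from 20.5% to 81.1%, and no bar is visible in the nuclease-only libraries, where the red value is 0.

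Taking the 4 RNH libraries together, 160 of the 185 promoters (86.5%) had a peak in at least 1, against 51.5% of protein-coding promoters, 62.5% of those with a listed gene transcript and no bidirectional one, and 26.4% of the promoters of all annotated genes. A peak in all 4 was present at 22 (11.9%), against 5.78% of protein-coding promoters, and 25 had none. Peaks in replicate 1 of both genotypes and in neither replicate 2 were the commonest combination, at 63 promoters. A peak in both H1-TKO libraries and in no wild-type library was present at 2 promoters, those of the AP-1 factor Jun and of Slc44a1, and the reverse at 0. Over all protein-coding promoters these patterns had shares of 0.497% and 0.31%, so that counts of 2 and 0 among 185 are too small to set apart from them. Jun had fold enrichments of 2.51 and 4.25 and Slc44a1 of 3.89 and 4.04 in the H1-TKO libraries, and both bidirectional transcripts were lower (-1.17 and -1.65).

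The genotypes did not differ beyond the spread between their libraries, although the share with a peak was larger in H1-TKO within each replicate number. The share of bidirectional promoters with a peak was 53.0% ± 39.8 (SD, n = 2) in H1-TKO and 44.6% ± 34.0 (SD, n = 2) in wild type, a difference of 8.38 percentage points with p = 0.667 in a two-sided exact permutation test, where 2 against 2 libraries cannot go below 0.33. Set against all annotated promoters of the same library, the log2 ratio of shares was 1.82 and 1.95 in H1-TKO and 1.75 and 2.01 in wild type, a difference of 0.0091 (exact permutation p = 1.0). The RNH libraries exceeded the nuclease-only controls by 48.8 percentage points (two-sided exact permutation p = 0.133, from 2 of 15 splits, where the smallest possible is 0.067). These p-values measure only the spread between libraries, which may be technical.

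Promoters of higher bidirectional transcripts had the larger share with a peak in each of the 4 libraries, by 2.32 to 7.43 percentage points. For the 158 higher ones the shares were 81.6%, 25.9%, 69.0% and 21.5% in H1-TKO libraries 1 and 2 and wild-type libraries 1 and 2, and for the 27 lower ones 77.8%, 18.5%, 66.7% and 14.8%. A peak in all 4 libraries was present at 21 of the higher (13.3%) and 1 of the lower (3.70%). These differences were not tested, because genes are not replicates. Among the 27 lower ones 1 promoter makes 3.70 percentage points, and the 4 libraries score the same promoters. The difference between genotypes was 1.14 percentage points larger for the higher ones (exact permutation p = 0.667), and its sign was not stable to the window or to single libraries. Genes with a listed gene transcript had peaks at 69.8%, 18.9%, 66.0% and 22.6% of promoters and those without at 85.6%, 27.3%, 69.7% and 19.7%. On chromosome 11 the shares were 92.3% and 30.8% in H1-TKO and 66.7% and 30.8% in wild type, so the first H1-TKO library was higher there and the second was not.

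Fold enrichment, the height of a peak over its local background as the authors' peak caller gave it, had a median of 3.72 and 4.65 in the H1-TKO libraries and 3.69 and 4.40 in wild type over the bidirectional promoters with a peak. Over the 22 promoters with a peak in all 4 libraries, the mean log2 fold enrichment was 2.09 and 2.34 in H1-TKO and 2.08 and 2.21 in wild type, a difference of 0.07 (exact permutation p = 0.667). Without Pgk1 the difference was 0.03 (exact permutation p = 1.0), so that 1 promoter made up most of it.

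**Figure D4:**
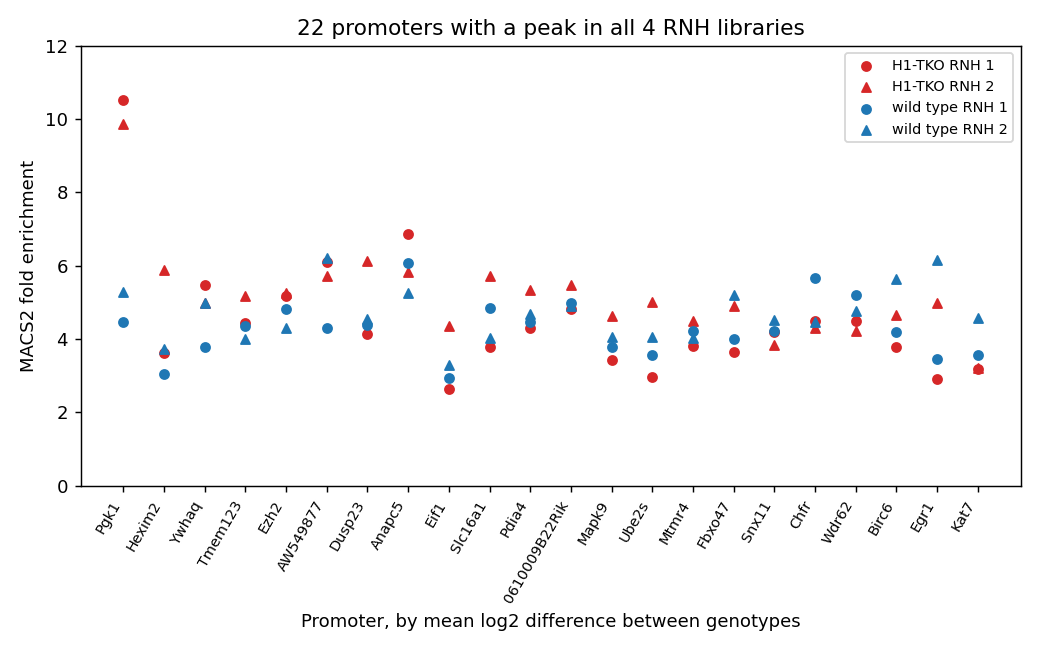
MACS2 fold enrichment (y axis) of the RNH peak at the 22 promoters with a peak in all 4 libraries, red for H1-TKO and blue for wild type, circles for replicate 1 and triangles for replicate 2, ordered by the mean log2 difference between genotypes. At most promoters the 4 points mix, and at Pgk1 the H1-TKO points (10.5 and 9.87) lie far above the wild-type points (4.47 and 5.28).

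The Pgk1 promoter stood apart from the other 21. Its peak had fold enrichments of 10.5 and 9.87 in the H1-TKO libraries and 4.47 and 5.28 in wild type, so the groups did not overlap and the mean log2 difference was 1.07 (exact permutation p = 0.333, the smallest that 2 against 2 allows). In both H1-TKO libraries it was the strongest peak at any protein-coding promoter, rank 1 of 10042 and 1 of 2818, whereas in wild type it ranked 2199 of 8954 and 383 of 2175. The difference between genotypes was also rank 1 of the 1269 protein-coding promoters with a peak in all 4 libraries. Pgk1 is thus first in the change of its bidirectional transcript among the 185, and in the change of its MapR peak among these 1269 promoters. The ranks are over unlike sets, and the 2 assays used separate libraries but compare the same 2 genotypes.

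The 2 signals covered the same short piece of DNA. The peak ran over chrX:106186687-106187243 (557 bp) in H1-TKO library 1 and chrX:106186724-106187243 (520 bp) in library 2, and the 507 bp bidirectional transcript lies inside both. In wild type it ran over chrX:106186709-106187398 (690 bp) and chrX:106186754-106187001 (248 bp). The summits stood at -201, -270, -210 and -253 bp from the gene start in the same order, on the side of the bidirectional transcript. The Pgk1 gene transcript itself was not listed. As background, a short fragment of the Pgk1 promoter is widely used to drive drug-resistance genes in constructs for targeting embryonic stem cells. Whether copies from such a construct contribute to the 2 signals was not tested, since the labels do not describe how the line was made.

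Among the other strong promoters, Anapc5 had fold enrichments of 6.87 and 5.84 in H1-TKO and 6.06 and 5.26 in wild type, and 0610009B22Rik, a gene with an uncharacterised name, had 4.82 and 5.47 against 4.98 and 4.91. The groups overlapped at both. Ezh2 had 5.18 and 5.26 against 4.81 and 4.32, without overlap. Chfr had 4.50 and 4.30 against 5.67 and 4.48, and Wdr62, a spindle pole protein gene, 4.50 and 4.21 against 5.21 and 4.77, lower in H1-TKO without overlap.

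AW549877 had 6.10 and 5.72 against 4.30 and 6.20, and the protein disulfide isomerase Pdia4 had 4.29 and 5.34 against 4.48 and 4.69. The phosphatase gene Dusp23 had 4.14 and 6.13 against 4.37 and 4.55. Tmem123, the only one of the 22 with a lower bidirectional transcript, had 4.44 and 5.16 against 4.36 and 4.00. In all, 4 of the 22 had both H1-TKO values above both wild-type values (18.2%, against 15% of the 1269 protein-coding promoters with 4 peaks) and 3 had both below (13.6%, against 7.17%), counts too small to set apart from these backgrounds. The smallest p at any single promoter was 0.333, so none can pass a threshold in this design.

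The most changed bidirectional transcripts differed widely in their peaks. Within 1 kb of the gene start, Upp1 had a peak in H1-TKO library 1 alone (2.67), and so had Trim25 (2.42). Further from the Upp1 start, library 1 of both genotypes had a peak, at -2078 bp in H1-TKO (2.48) and at -2095 bp in wild type (2.66). Zic2 had peaks in 3 libraries, at 3.59 in H1-TKO and at 3.79 and 4.42 in wild type. At the low end, Tcp1 had peaks in 3 libraries, at 5.34 and 4.24 in H1-TKO and 5.12 in wild type, Etv4 also in 3, at 2.61 in H1-TKO and 2.83 and 3.06 in wild type, and Ttc39a, Itpk1 and Grtp1 in none.

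RNH peaks were denser at the start than along the bidirectional transcript. Within 1 kb of the gene start, the median summit position was 49 and -97 bp in the H1-TKO libraries and 1.5 and -51 bp in wild type, where negative positions are on the bidirectional side. Of the summits within 1 kb, 59.9% and 34.0% in H1-TKO and 51.5% and 32.4% in wild type were on the gene side. The side thus followed the replicate number and not the genotype. Beyond the promoter window, the bidirectional transcripts cover 2141 kb and held 38, 10, 31 and 17 peaks, or 1.77, 0.47, 1.45 and 0.79 per 100 kb, against 44.3, 12.7, 37.0 and 10.5 per 100 kb within the promoter windows. Over all assembled chromosomes the lists gave 0.91, 0.22, 0.80 and 0.23 peaks per 100 kb, below the density along the bidirectional transcripts in each library. The 2 densities are not alike, since whole chromosomes include stretches far from genes. Of the 185 bidirectional transcripts, 93 overlapped an annotated gene on their own strand. The part of other promoters in the density along these transcripts was not tested.

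**Figure D5:**
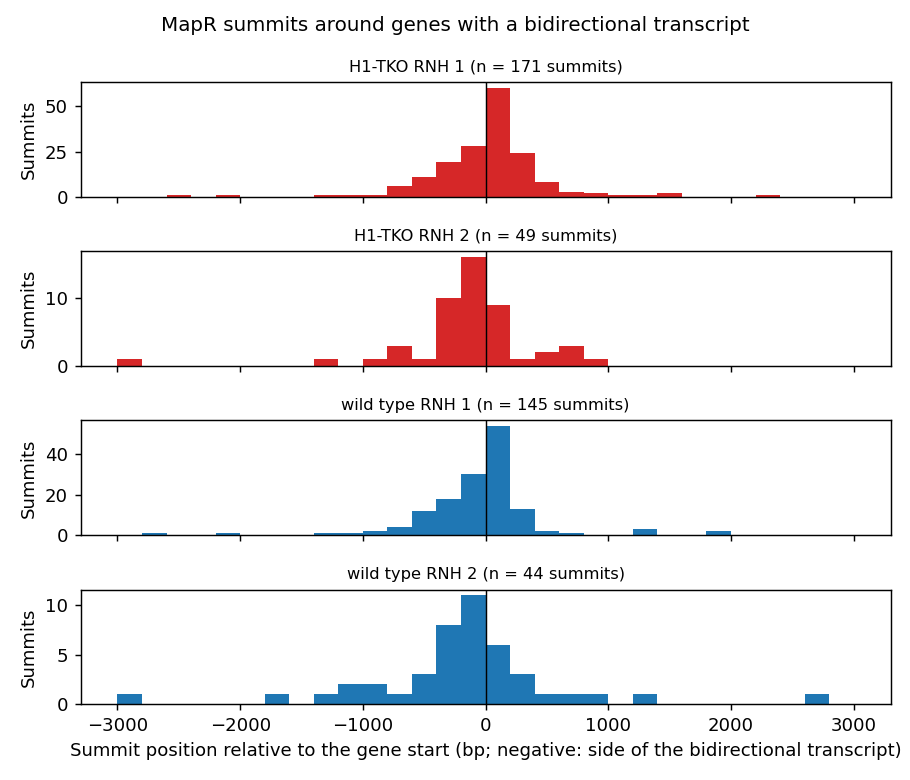
Number of RNH peak summits (y axis, bins of 200 bp) by position relative to the gene start (x axis, bp, negative on the side of the bidirectional transcript), for the 2 H1-TKO libraries (red) and the 2 wild-type libraries (blue). All 4 distributions are centred near 0, with medians between -97 and 49 bp over the summits within 1 kb, and replicate 2 of each genotype is shifted to the bidirectional side.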

How the data were processed

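The 185 genes are those of the bidirectional rows of the authors' deposited cheRNA table, whose log2 fold changes the authors computed from 3 samples per genotype. The submitters' processing notes name MACS2, DESeq2, bedtools, SAMtools, BWA and TopHat2 and the mouse build mm10, without versions or the step each tool served. The signs were multiplied by -1 because the deleted H1 genes were positive. The MapR peak lists were deposited by the authors per library in the MACS2 layout, with a fold enrichment (a ratio), −log10 p and −log10 q values and a score per peak; the sources used here do not name the control used in calling. Depth is unknown, because only peaks and fold changes were at hand, and no counting interval is given.

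Genes and starts were matched to GENCODE release M21, which uses the same build. A promoter is a start with 1 kb on both sides and holds a peak at an overlap of at least 1 bp; RNH peaks that overlap a nuclease-only peak were removed. Two-sided exact permutation tests over libraries compared shares and mean log2 fold enrichments (Python 3.11.15, pandas 2.3.3, NumPy 2.4.6). The overlap and permutation code was tested on simulated data. Promoter sequences are RefSeq's; the first kb on both sides was read from the RefSeq genome with pysam 0.24.0.

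The genes, lists and tests were chosen with earlier results of these data known. Named were the 10 highest and 10 lowest transcripts, up to 10 genes per combination of directions with the gene transcript, the 10 strongest promoters with 4 RNH peaks, and members of the fixed lists; 1 item that this rule would name is not reported here. Hist3h2a, Hist2h4, Rpgrip1, Skp1a, Fam234b, Sqstm1, Dleu7 and Jun were added after their values were seen. Lists covered pluripotency, chromatin regulators, linker histones, m6A, RNA decay, R-loops, repair and replication, splicing, translation, cell cycle, signalling, germ layer and fibroblast markers, and families by symbol. The tables list only transcripts past the authors' threshold, so counts of members are counts within that table. Samples of the other assays were not analysed here.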

Additional observations from a re-analysis of the deposited data

How the results depend on the processing

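The share of bidirectional transcripts that were higher stayed between 82.2% and 87.3% under the 3 alternatives tried, and the share in the direction of the gene transcript was 93.3% without chromosome 11, 94.4% with gene transcripts matched by overlap and 100% with absolute log2 values of at least 2 in both. The excess of RNH over nuclease-only libraries ranged from 38.0 to 58.2 points when a library was left out; with 0 promoters in both controls its sign could not turn, and the controls' short lists were not matched in length.

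No difference between genotypes kept its sign whenever a single library was left out. That of the share turned only without H1-TKO replicate 1 or without wild-type replicate 2, which leaves the genotypes with unlike replicate numbers. The share kept its sign under the other settings tried. Within each replicate number it was larger in H1-TKO (81.1% against 68.6%, and 24.9% against 20.5%). Leaving out 1 library moved the difference in share between -19.7 and 36.5 points, the log2 ratio to all promoters between -0.12 and 0.14, the log2 fold enrichment between -0.050 and 0.20, and the contrast of higher with lower transcripts between -1.05 and 3.33 points. The log2 ratio reversed to -0.035 with windows of 2 kb, to -0.0113 with windows centred on the 5′ end of the bidirectional transcript and to -0.0117 against protein-coding promoters alone, the last chosen after seeing the data. The contrast of higher with lower transcripts reversed to -4.15 points with windows of 500 bp, -0.45 with 2 kb, -1.35 with the centred windows and -2.95 without chromosome 11. The cause was not tested.

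With the replicate number as a block, the difference in share was 8.38 points (exact permutation p = 0.5, the smallest that 2 pairs allow), so no call could change under the block. Over 11300 coding promoters with a peak, the differences between replicates 1 and 2 correlated weakly between the genotypes (r = 0.196). That value leaves out any shift common to all promoters. List length, share with a peak and summit side all followed the replicate number in both genotypes, but 2 pairs do not establish a pairing. Unequal peak lists limit the shares, and with lists of equal length the difference was 3.51 points.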
